A study of Rattus norvegicus with 10 samples.

Results

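The genes described here build the extracellular matrix around islet cells: collagens, laminins, lysyl oxidases, thrombospondins, and the matrix proteins Fn1, Fbn1, Dcn, Lum and Sparc. They were chosen by gene symbol, as every gene with a probe set annotated to 1 symbol of these families. No level entered that rule, but the rule was set with earlier results of these data known. This gave 63 genes with 88 probe sets, of 14217 genes and 31042 probe sets measured. They comprise 41 collagen chains, 10 laminin chains, 4 lysyl oxidases, 3 thrombospondins and the other 5. Where a gene had several probe sets the brightest, by its mean over the 10 arrays, was used, 42 genes having a single probe set and 21 having more, up to 3. Thbs1 has no probe set with 1 symbol and was not analysed here.

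The study hybridised islet RNA of rats 40 days old to 10 Affymetrix arrays, 2 for each of 5 groups. DR+/+ and JB rats are described as diabetes inducible without a mutation at the lyp locus, and JBlyp/lyp rats as diabetes prone and homozygous for it. F344 rats and F344lyp rats, the latter named for the same locus, are labelled healthy controls. BB (BioBreeding) rats develop autoimmune diabetes, lyp is their lymphopenia locus, and DR+/+, JB and JBlyp/lyp are grouped here as BB. The labels do not state how the JB and DR lines are related, and the growth protocol has both DR+/+ and JBlyp/lyp animals come from DRlyp/+ breeders. Islets of male rats were freed with collagenase and purified on a density gradient, so what matrix-producing cells remained on the islets depends on that isolation. The labels call the arrays biological replicates without saying whether each came from 1 animal or a pool, so the p-values measure only the spread between these samples.

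As background, collagen chains fold as triple helices. Fibril-forming collagens give connective tissue its tensile strength, whereas collagen IV and the laminins assemble into the basement membrane sheets on which endothelial and epithelial cells rest. Lysyl oxidases crosslink collagen and elastin outside the cell. In the islet, endocrine cells contact the basement membrane of the capillaries, and a thin capsule with fibroblast-like cells separates the islet from the exocrine tissue.

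Insulin transcripts were near the top of the signal range everywhere, with Ins1 between 13.9 and 14.3 on the log2 scale on the 10 arrays. Replicates of a group correlated at 0.981 to 0.997 over all probe sets, and array medians lay between 5.39 and 5.44. The DR+/+ arrays stand apart from the other 8. Their glucagon signal was 11.2 and 11.3, against 13.1 and 13.3 in JB, and their 8 beta cell markers had a mean log2 level of 9.97 to 10.1 against 11.7 to 12.1 on the other arrays. The signal gap between the 3' and 5' probe sets of Gapdh, a measure of RNA integrity and labelling, was 2.75 to 3.71 on the 6 BB arrays and 2.19 to 2.43 on the 4 F344 and F344lyp arrays. The same gap for beta-actin was 2.57 and 2.86 in DR+/+, 4.17 and 3.40 in JB, and between 2.72 and 3.43 on the remaining arrays. For hexokinase it was 1.02 and 0.941 in DR+/+ and between 0.525 and 0.728 on the other 8 arrays, so this gap sets the DR+/+ arrays apart.

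The matrix genes separated DR+/+ islets from all other islets. Of the 63 genes, 35 rose and 5 fell in DR+/+ against JB at a Benjamini-Hochberg adjusted p under 0.05 in limma, where 34.0% of all genes were called in either direction, 15.5% higher and 18.4% lower. The median difference of the 63 genes was 0.83 on the log2 scale, beside -0.04 over all genes tested. Against F344, DR+/+ had 39 matrix genes higher and 5 lower, where 40.1% of all genes were called, 16.3% higher and 23.8% lower, and the median difference was again 0.83. The 2 comparisons share the DR+/+ arrays. In bulk RNA, more cells of a type and more RNA per cell cannot be told apart.

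The separation is visible on single arrays. In 38 of the 63 genes both DR+/+ arrays lay above all of the other 8, where 18.0% of all genes did so, and in 4 genes (Col11a2, Col27a1, Col9a1 and Col6a6) both lay below them, where 24.8% of all genes did. The 38 include 8 of 10 laminins, 7 of 11 fibril-forming collagens, and 5 of 11 network collagens. Among the 44 matrix genes with a mean at or above the median probe set, 29 had both DR+/+ arrays on top. That mean includes the DR+/+ arrays, and the share among all genes of that brightness was not counted, so this count has no background beside it. The summed intensity of the 63 genes was 35141 and 35421 on the DR+/+ arrays and between 15628 and 20231 on the others.

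**Figure D1:**
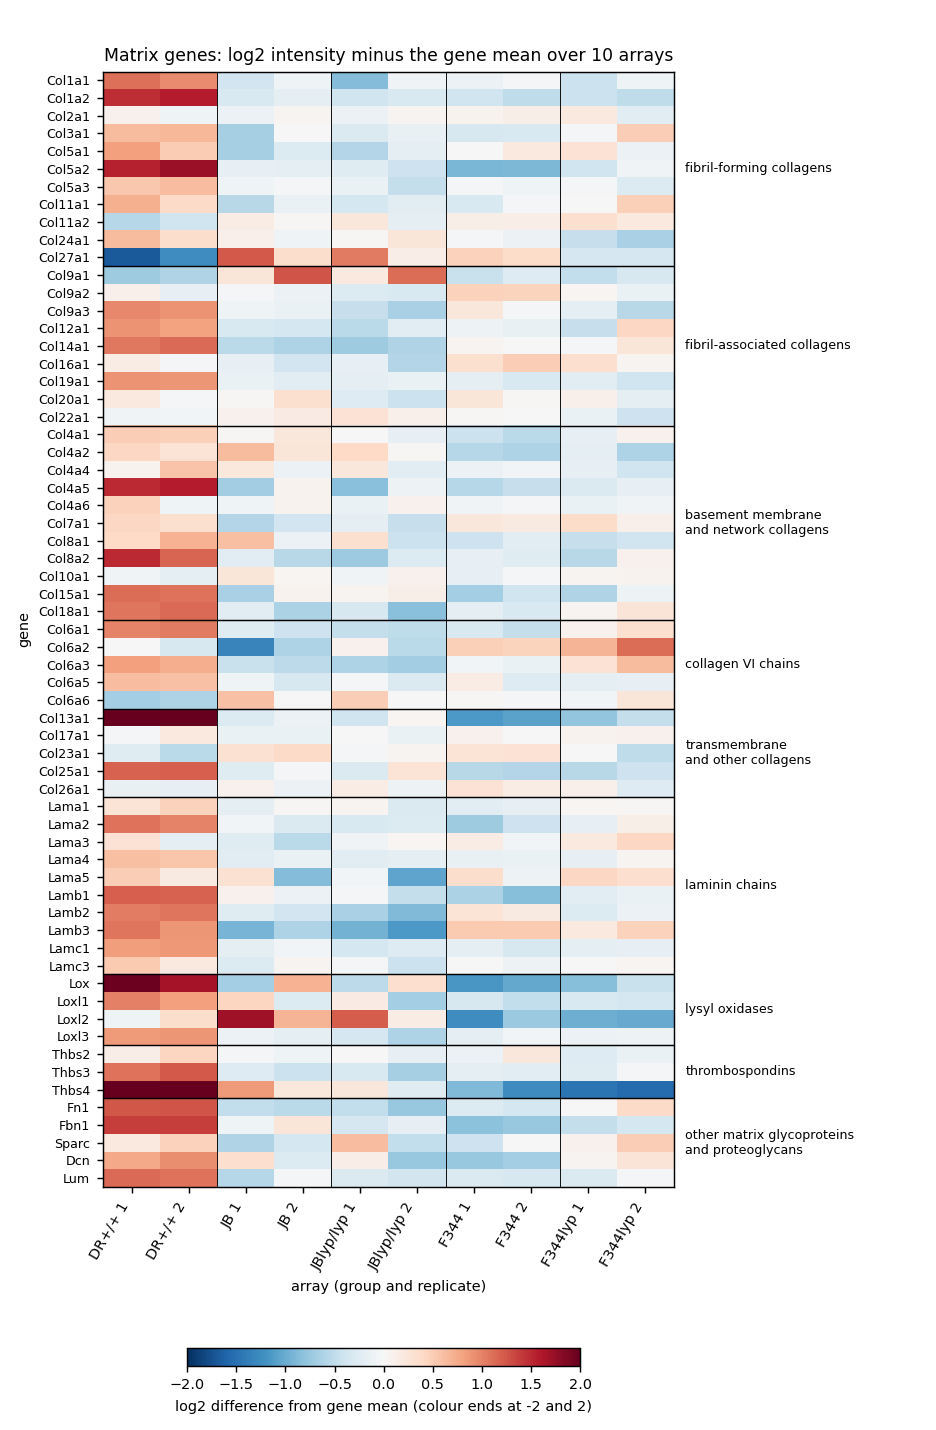
Level of each of the 63 matrix genes (rows, grouped by role) on each of the 10 arrays (columns), as log2 intensity minus the gene's mean over the arrays, with colours ending at -2 and 2. Red fills most rows in both DR+/+ columns, and Col27a1, Col9a1, Col6a6, Col11a2 and, more faintly, Col23a1 are blue there.

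The fibril-forming collagens were mostly higher in DR+/+, with 8 of 11 rising, 2 falling and a median difference of 0.89 against JB. Col1a2, a chain of type I collagen, the main fibril collagen of connective tissue, had log2 levels of 11.14 and 11.24 in DR+/+, 9.36 and 9.48 in JB, 9.27 and 9.36 in JBlyp/lyp, 9.26 and 9.16 in F344, and 9.23 and 9.15 in F344lyp. On this probe set the 8 arrays outside DR+/+ spanned a narrow band, well under both DR+/+ arrays. Against JB the difference was 1.77 ± 0.13 (SE, 2 against 2 arrays), a 3.40-fold higher level with an adjusted p of 1.52e-05. Each SE given here pools the spread within all 5 groups, not only that of the groups compared. A second probe set of Col1a2, nearly as bright, gave a smaller difference of 0.89 ± 0.17 (adjusted p = 0.00399) and was called higher in JB than in F344, at 0.62 ± 0.17 (adjusted p = 0.0496). Its partner chain Col1a1 read 9.86 and 9.70 in DR+/+, 8.38 and 8.67 in JB, 7.90 and 8.69 in JBlyp/lyp, 8.65 and 8.74 in F344, and 8.34 and 8.67 in F344lyp. Its arrays did not overlap either, and Col1a1 rose by 1.26 ± 0.24 (adjusted p = 0.00359). A second, dimmer probe set of Col1a1 gave 0.82 ± 0.40 (adjusted p = 0.168), so this call rests on 1 of 2 probe sets.

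Col3a1, the type III chain that forms fibrils together with type I, read 11.82 and 11.84 in DR+/+, 10.52 and 11.17 in JB, 10.90 and 11.03 in JBlyp/lyp, 10.86 and 10.88 in F344, and 11.15 and 11.67 in F344lyp. It was higher in DR+/+ by 0.98 ± 0.23 (adjusted p = 0.00899), and the second F344lyp array came close to the DR+/+ level. Col5a2, a type V chain found within type I fibrils, had 11.05 and 11.24 in DR+/+, 9.36 and 9.33 in JB, 9.27 and 9.10 in JBlyp/lyp, 8.61 in both F344 arrays, and 9.12 and 9.45 in F344lyp. It rose by 1.80 ± 0.15 against JB (adjusted p = 2.87e-05) and was itself higher in JB than in F344, by 0.74 ± 0.15 (adjusted p = 0.0133). A second probe set of Col5a2 gave 0.50 ± 0.24 for JB against F344 and was not called (adjusted p = 0.231).

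Col27a1, a fibrillar collagen chain known from cartilage, went the other way. Its levels were 7.34 and 7.77 in DR+/+, 10.24 and 9.37 in JB, 10.06 and 9.14 in JBlyp/lyp, 9.48 and 9.38 in F344, and 8.67 on both F344lyp arrays. Both DR+/+ arrays were the lowest of the 10, and the difference from JB was -2.25 ± 0.33 (4.76-fold, adjusted p = 0.000676). Col11a2 fell too, by 0.57 ± 0.16 (adjusted p = 0.0266). Col2a1, the main cartilage fibril collagen, was dim on all arrays, between 4.30 and 4.72.

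The promoter of Col1a2 is shown because the gene had the smallest standard error among the 8 fibril-forming collagens that rose. The stretch covers bases 250 to 131 before the RefSeq start on assembly GRCr8, at chr4:33518307-33518426 on the plus strand, and capitals mark a reverse-strand CCAAT box and a TATAAA box.

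Col1a2: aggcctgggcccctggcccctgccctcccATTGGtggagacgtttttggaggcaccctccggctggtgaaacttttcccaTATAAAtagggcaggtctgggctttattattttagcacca

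The same letters were counted in the other matrix genes. Of the 48 genes with a promoter in the RefSeq set, 5 (10.4%) held TATAAA, 13 (27.1%) held CCAAT and 25 (52.1%) held GGGCGG (an Sp1-type GC box) in the 250 bases before the start, counting both strands. Over all 27457 promoters the shares were 13.1%, 34.2% and 32.3%, and among the 26 of these genes that rose in DR+/+ against JB the counts were 3, 8 and 13. A match describes letters and shows no use of a site.

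Fibril-associated collagens sit on the surface of fibrils or link them to other matrix. In DR+/+ against JB 4 of 9 rose, 1 fell, and the median difference was 0.33. Col14a1, which binds type I fibrils, had 10.58 and 10.66 in DR+/+, 8.99 and 8.92 in JB, 8.82 and 8.93 in JBlyp/lyp, 9.59 and 9.52 in F344, and 9.51 and 9.78 in F344lyp. On this probe set the values form 3 steps, with DR+/+ on top, both F344 groups between, and both JB groups at the bottom. The step from F344 to JB was -0.61 ± 0.14 (adjusted p = 0.0215) and that from F344lyp to JBlyp/lyp -0.77 ± 0.14 (adjusted p = 0.00667). A second probe set of Col14a1 gave -1.08 for JB against F344 (adjusted p = 0.00168) but 0.10 for DR+/+ against F344 (adjusted p = 0.642), so the step from F344 up to DR+/+ rests on 1 of 2 probe sets. Col9a1, a type IX chain of cartilage, read 8.34 and 8.46 in DR+/+ and 8.56 to 8.80 in the F344 groups. JB read 9.30 and 10.32 and JBlyp/lyp 9.25 and 10.17, so the 2 replicates of each JB group lay about a log2 unit apart. Against JB, Col9a1 in DR+/+ fell by 1.41 ± 0.34 (adjusted p = 0.0114).

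The basement membrane and network collagens divided. Against JB 5 of 11 rose in DR+/+, none fell, and the median difference was 0.36. Col4a5, a chain of specialised basement membranes, read 10.54 and 10.61 in DR+/+ and between 8.21 and 9.12 on the other 8 arrays, a rise of 1.84 ± 0.27 against JB (adjusted p = 0.000761). Col15a1 and Col18a1, collagens of vascular basement membranes, the latter being the source of endostatin, were also called higher, by 1.39 and 1.53, as was Col8a2, a network collagen of the eye and vessels, by 1.71. All 4 had both DR+/+ arrays above the other 8.

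The most abundant network chains in most basement membranes, Col4a1 and Col4a2, showed little or none of that step against JB. Col4a1 read 10.20 and 10.19 in DR+/+, 9.74 and 9.94 in JB, 9.71 and 9.55 in JBlyp/lyp, 9.28 and 9.18 in F344, and 9.54 and 9.80 in F344lyp. Col4a2 read 9.25 and 9.12 in DR+/+, 9.48 and 9.08 in JB, 9.24 and 8.86 in JBlyp/lyp, 8.27 and 8.23 in F344, and 8.66 and 8.23 in F344lyp. In Col4a1 both DR+/+ arrays were still the highest. In Col4a2 they lay between the 2 JB arrays, and the F344 groups were lowest. Against JB the DR+/+ difference was 0.36 ± 0.15 for Col4a1 (adjusted p = 0.103) and -0.10 ± 0.20 for Col4a2 (adjusted p = 0.777), neither of them past the threshold. Both were higher in JB than in F344, Col4a1 by 0.61 ± 0.15 (adjusted p = 0.0267) and Col4a2 by 1.03 ± 0.20 (adjusted p = 0.0103). The second probe set of Col4a1 gave 0.06 for the first comparison and 0.74 for the second. Against F344, both chains were called higher in DR+/+, Col4a1 by 0.97 and Col4a2 by 0.94.

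These 2 genes lie head to head on chromosome 16, and the 76 bases between their RefSeq starts serve both. They are shown as the shared start region of a pair of neighbours that were both higher in JB than in F344 and not called in DR+/+ against JB, at chr16:84885521-84885596 on the plus strand of GRCr8, with capitals marking a GC box.

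Col4a1 and Col4a2: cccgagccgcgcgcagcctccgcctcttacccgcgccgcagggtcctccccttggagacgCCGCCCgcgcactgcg

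Of the collagen VI chains, which form beaded filaments around cells, 3 of 5 rose in DR+/+ against JB and 1 fell, with a median difference of 0.81. Col6a1 had 11.13 and 11.17 in DR+/+, 9.91 and 9.73 in JB, 9.66 and 9.63 in JBlyp/lyp, 9.84 and 9.67 in F344, and 10.23 and 10.46 in F344lyp. Col6a3 had 9.85 and 9.75 in DR+/+, 8.58 and 8.51 in JB, 8.41 and 8.34 in JBlyp/lyp, 8.97 and 8.90 in F344, and 9.31 and 9.67 in F344lyp. Both chains were highest in DR+/+ and next highest in F344lyp. Col6a3 was lower in JBlyp/lyp than in F344lyp, at -1.12 ± 0.15 (adjusted p = 0.00131).

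Col6a2, which assembles with these chains and neighbours Col6a1 on chromosome 20, had a different order. It read 7.68 and 7.36 in DR+/+, 6.36 and 7.06 in JB, 7.77 and 7.13 in JBlyp/lyp, 8.16 and 8.12 in F344, and 8.35 and 8.80 in F344lyp. All 4 F344 and F344lyp arrays were above all 6 BB arrays, and the difference of JB from F344 was -1.43 ± 0.28 (adjusted p = 0.0100). A second, dimmer probe set of Col6a2 gave -0.06 there, so the probe sets disagree. Col6a6, another chain of this family, fell by 0.95 ± 0.22 in DR+/+ against JB (adjusted p = 0.00924).

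Col13a1, a transmembrane collagen of cell contacts, had the greatest rise of the 63 genes in DR+/+ against JB. It read 9.18 and 9.09 in DR+/+, 6.75 and 6.91 in JB, 6.62 and 7.05 in JBlyp/lyp, 5.88 and 5.95 in F344, and 6.23 and 6.55 in F344lyp. DR+/+ exceeded JB by 2.30 ± 0.18 (4.93-fold, adjusted p = 1.84e-05) and F344 by 3.22 ± 0.18 (9.30-fold, adjusted p = 3.32e-06). Both JB groups lay above both F344 groups, and the difference of JB from F344 was 0.91 ± 0.18 (adjusted p = 0.0104). Of the other transmembrane and short collagens Col25a1 rose by 1.33 and Col23a1 fell by 0.74 ± 0.18 (adjusted p = 0.0133), whereas Col17a1 and Col26a1 were not called.

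Laminins are cross-shaped trimers of an alpha, a beta and a gamma chain. In DR+/+ against JB 6 of 10 chains rose, none fell, and the median difference was 0.86. The 6 were Lama2, Lama4, Lamb1, Lamb2, Lamb3 and Lamc1, which include a chain of each kind. Lamc1, the gamma chain of most laminins, had 10.82 and 10.84 in DR+/+ and between 9.62 and 9.92 elsewhere. Lama4, the alpha chain of endothelial basement membranes, had 8.57 and 8.52 in DR+/+ and between 7.74 and 8.03 elsewhere. Neither chain was called in JB against F344, in JBlyp/lyp against F344lyp or in either lyp comparison.

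The 3 beta chains differed among the other groups. Lamb1 read 9.46 and 9.45 in DR+/+, 8.36 and 8.15 in JB, 8.24 and 7.79 in JBlyp/lyp, 7.63 and 7.42 in F344, and 8.05 and 8.14 in F344lyp. Lamb2, the beta chain of vessel and nerve basement membranes, read 9.75 and 9.80, 8.48 and 8.34, 8.08 and 7.84, 8.99 and 8.90, and 8.45 and 8.61 in the same order of groups. Lamb3, the beta chain of the epithelial laminin of anchoring structures, read 7.44 and 7.25, 5.44 and 5.76, 5.42 and 5.21, 6.89 and 6.90, and 6.56 and 6.84. Lamb1 was thus higher in JB than in F344 while Lamb2 and Lamb3 were lower. The difference of JB from F344 was 0.73 for Lamb1, -0.54 ± 0.14 for Lamb2 (adjusted p = 0.0377) and -1.30 ± 0.17 for Lamb3 (adjusted p = 0.00129). Lamb3 was also lower in JBlyp/lyp than in F344lyp, at -1.38 ± 0.17 (2.61-fold, adjusted p = 0.000742).

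Lama5, the alpha chain of many adult epithelial and vascular laminins, was not called in DR+/+ against JB. It read 8.07 and 7.76 in DR+/+, 7.88 and 6.72 in JB, 7.52 and 6.52 in JBlyp/lyp, 7.92 and 7.48 in F344, and 7.99 and 7.91 in F344lyp, with the second replicate of each JB group below all other arrays.

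**Figure D2:**
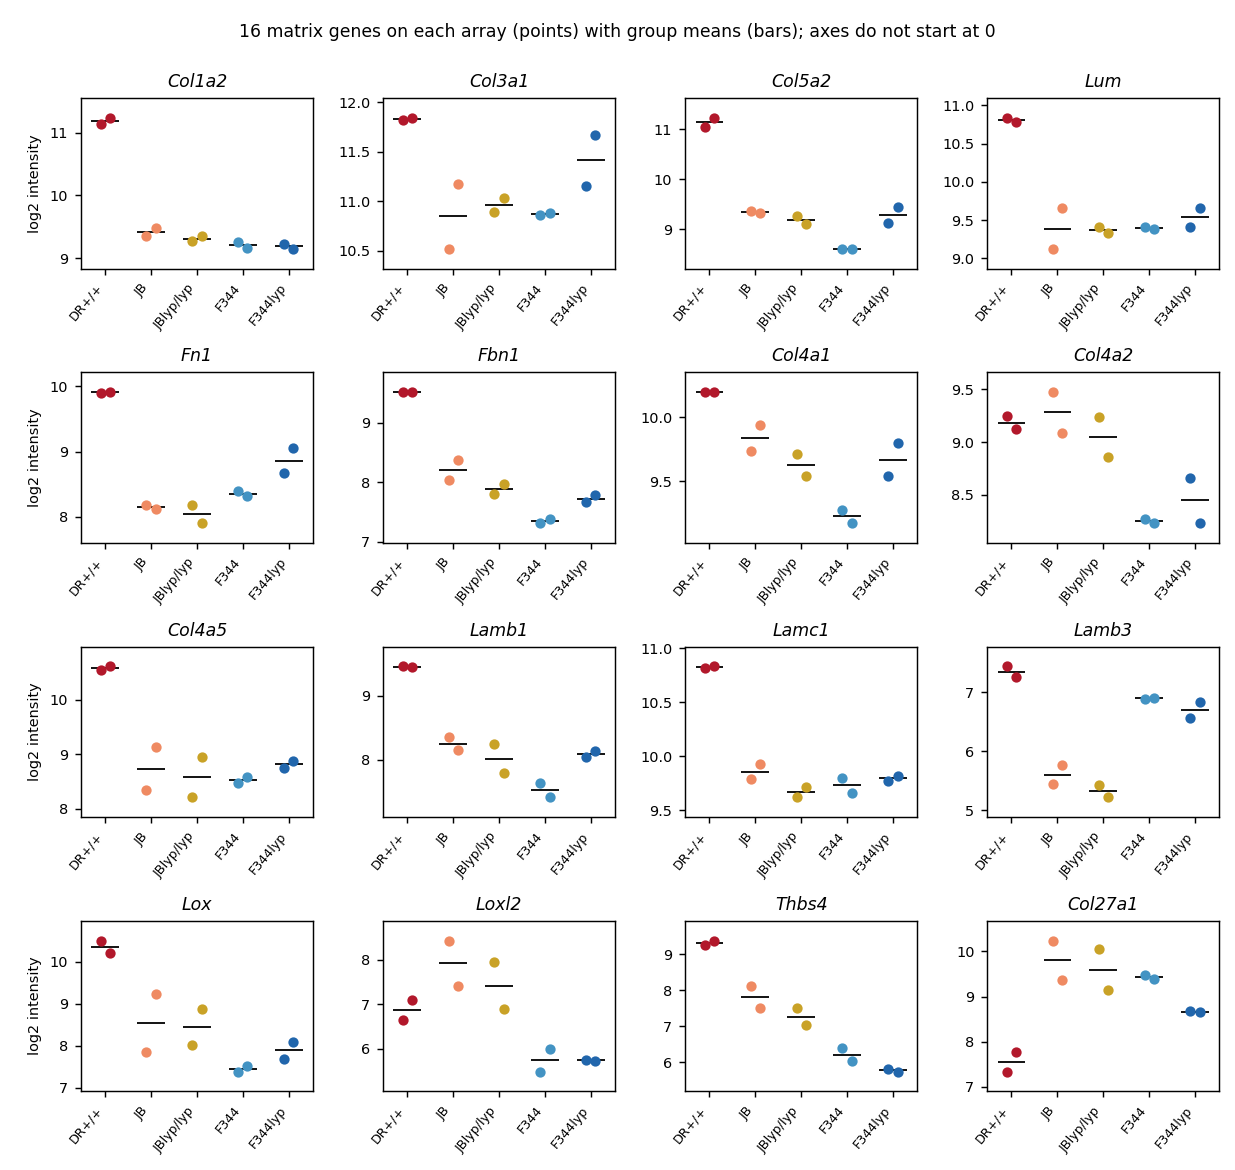
Log2 intensity of 16 matrix genes (panels) on every array (points, coloured by group) with group means (bars), on axes that do not start at 0. Col1a2 and Col4a5 have both DR+/+ points well above all others, Col4a2 and Loxl2 do not, Thbs4 descends from DR+/+ over JB and JBlyp/lyp to F344, and Lamb3 is lowest in both JB groups.

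Among the crosslinking enzymes, 2 of 4 rose in DR+/+ against JB. Lox, the founding lysyl oxidase, had 10.50 and 10.20 in DR+/+, 7.86 and 9.24 in JB, 8.02 and 8.88 in JBlyp/lyp, 7.38 and 7.52 in F344, and 7.69 and 8.10 in F344lyp. The DR+/+ arrays were above all others, and the first replicate of each JB group was below the second, by 1.38 in JB and 0.86 in JBlyp/lyp. DR+/+ exceeded JB by 1.80 ± 0.40 (adjusted p = 0.00806) and F344 by 2.90 ± 0.40 (7.47-fold, adjusted p = 0.000445). Loxl3 read 5.61 and 5.64 in DR+/+ and between 4.15 and 4.71 elsewhere. Loxl1, an enzyme of elastic fibres, read 9.52 and 9.33 in DR+/+ and between 7.83 and 8.95 elsewhere, a difference from JB of 0.83 that was not called.

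Loxl2, which crosslinks collagen IV, behaved unlike these. It read 6.65 and 7.08 in DR+/+, 8.43 and 7.41 in JB, 7.95 and 6.89 in JBlyp/lyp, 5.49 and 5.99 in F344, and 5.76 and 5.73 in F344lyp. All 6 BB arrays were above all 4 F344 and F344lyp arrays, and JB was the highest group. JB exceeded F344 by 2.18 ± 0.38 (4.53-fold, adjusted p = 0.00679) and JBlyp/lyp exceeded F344lyp by 1.67 ± 0.38 (adjusted p = 0.0194). A second probe set of Loxl2, lower in mean signal, gave -0.10 for JB against F344 (adjusted p = 0.806), so this difference rests on 1 of 2 probe sets.

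Thrombospondins are multimeric glycoproteins that regulate how cells meet the matrix. Thbs4, known from tendon, heart and nerve matrix, graded across the groups. It read 9.27 and 9.38 in DR+/+, 8.13 and 7.50 in JB, 7.51 and 7.04 in JBlyp/lyp, 6.40 and 6.03 in F344, and 5.81 and 5.74 in F344lyp. All 6 BB arrays lay above all 4 others, the replicates of neighbouring groups JB and JBlyp/lyp overlapping at about 7.5. DR+/+ exceeded JB by 1.51 ± 0.23 (2.85-fold, adjusted p = 0.000937), JB exceeded F344 by 1.60 ± 0.23 (3.04-fold, adjusted p = 0.00251), and JBlyp/lyp exceeded F344lyp by 1.50 ± 0.23 (2.82-fold, adjusted p = 0.00309). Thbs3 read 5.89 and 6.02 in DR+/+ and between 4.14 and 4.77 elsewhere, a single step. Thbs2, an inhibitor of vessel growth, was dim, between 4.33 and 5.01, and was called in none of the 8 comparisons.

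The 200 bases before the RefSeq start of Thbs4 are shown because it was the matrix gene with the greatest difference between BB and F344 islets. They lie at chr2:25760346-25760545 on the minus strand of GRCr8, and capitals mark its 2 GC boxes.

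Thbs4: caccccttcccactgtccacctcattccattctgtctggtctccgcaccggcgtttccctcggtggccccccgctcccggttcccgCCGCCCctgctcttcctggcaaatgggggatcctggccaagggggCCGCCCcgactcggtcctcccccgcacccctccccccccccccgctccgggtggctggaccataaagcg

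Of the remaining glycoproteins and proteoglycans 3 of 5 rose in DR+/+ against JB. Fn1, fibronectin, which links integrins to collagen, had 9.90 and 9.91 in DR+/+, 8.18 and 8.13 in JB, 8.18 and 7.90 in JBlyp/lyp, 8.39 and 8.32 in F344, and 8.67 and 9.05 in F344lyp. It was higher in DR+/+ than in JB by 1.76 ± 0.16 (3.38-fold, adjusted p = 4.63e-05) and lower in JBlyp/lyp than in F344lyp, at -0.82 ± 0.16 (adjusted p = 0.00972). Fbn1, the main microfibril protein fibrillin, had 9.51 and 9.52 in DR+/+, 8.04 and 8.37 in JB, 7.79 and 7.96 in JBlyp/lyp, 7.31 and 7.38 in F344, and 7.66 and 7.78 in F344lyp. It rose by 1.31 ± 0.15 against JB (adjusted p = 0.000157), and JB exceeded F344 by 0.86 ± 0.15 (adjusted p = 0.00623). A second probe set of Fbn1 gave 0.79 ± 0.25 for JB against F344 and was not called (adjusted p = 0.0699).

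Lum, lumican, a proteoglycan that spaces collagen fibrils, had 10.84 and 10.78 in DR+/+, 9.12 and 9.65 in JB, 9.41 and 9.34 in JBlyp/lyp, 9.41 and 9.38 in F344, and 9.41 and 9.66 in F344lyp. Lum was higher in DR+/+ than in JB by 1.42 ± 0.18 (adjusted p = 0.000301), and its values on the 8 other arrays stayed between 9.12 and 9.66. Dcn, decorin, its neighbour on chromosome 7, had 10.07 and 10.25 in DR+/+, 9.65 and 9.04 in JB, 9.46 and 8.56 in JBlyp/lyp, 8.56 and 8.63 in F344, and 9.38 and 9.58 in F344lyp. Dcn in DR+/+ was not called against JB, at 0.82 ± 0.28 (adjusted p = 0.0549), though no array overlapped. Sparc, a collagen-binding matricellular protein, ran from 9.11 to 10.33 with the top value on the first JBlyp/lyp array, and its difference of 0.80 ± 0.32 between DR+/+ and JB was not called (adjusted p = 0.0923).

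Limits of the DR+/+ comparison concern single arrays and RNA quality. Of its 16 named calls, 10 held without each array in turn. Col3a1 lost its call without DR+/+ replicate 2 or JB replicate 1, Lox without DR+/+ replicate 1, Col9a1 without either DR+/+ array or JB replicate 2, Col6a6 without DR+/+ replicate 1 or JB replicate 1, Col23a1 without DR+/+ replicate 2 or JB replicate 2, and Col11a2 without any of these 4 arrays or either F344 array. In the comparison with F344, Col1a1, Col3a1, Col23a1, Col6a6, Col11a2 and Col9a2 lost their calls without F344 replicate 1, and all of these except Col1a1 also without F344 replicate 2 and without at least 1 DR+/+ array. With the Gapdh 3' to 5' gap as a covariate 30 genes were higher and 3 lower in DR+/+ than in JB, and with the beta-actin gap 19 and 1, Lox then having a difference of -0.094. With the hexokinase gap, which separates the DR+/+ arrays from all others, 0 genes were called in DR+/+ against JB and 9 in DR+/+ against F344, while the median difference against JB was 0.81. Col1a1, Col3a1, Lox, Col4a5, Col27a1, Col6a6 and Col11a2 then changed sign against JB. RNA quality as the hexokinase gap measures it and the DR+/+ group cannot be told apart here.

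The contrast of all 3 BB groups with both F344 groups gave 20 matrix genes higher and 7 lower, where 37.9% of all genes were called, 13.3% higher and 24.6% lower. The median difference was 0.16. Thbs4 led at 2.14 ± 0.15 (4.42-fold, adjusted p = 1.14e-05), followed by Loxl2 at 1.66 ± 0.25 (adjusted p = 0.000808), Col13a1 at 1.45 ± 0.11 (adjusted p = 2.38e-05), Lox at 1.44 ± 0.26 (adjusted p = 0.00236), Fbn1 at 1.002 ± 0.096 (adjusted p = 6.93e-05) and Col5a2 at 0.95 ± 0.10 (adjusted p = 0.000106). Of these, Thbs4, Loxl2, Col13a1 and Fbn1 had no overlap between BB and F344 arrays. The greatest falls were those of Col6a2, by 1.13 ± 0.18 (adjusted p = 0.00105), and Lamb3, by 0.71 ± 0.11 (adjusted p = 0.00082). Spread between the groups of 1 side does not enter these errors.

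The DR+/+ arrays carried part of this contrast. Without them 8 matrix genes were higher and 11 lower in BB, and of the 27 calls made with them 13 held. The share of all genes called in that fit was not counted. Col1a2, Col4a1, Lox and Col5a2 were then no longer called higher, Col11a2 no longer lower, Fn1 had a difference of -0.51 (adjusted p = 0.0170), and Lum, at 0.39 ± 0.12 with DR+/+ (adjusted p = 0.0269), had one of -0.085. Taking the group as a random block left 1 call, Thbs4 (adjusted p = 0.0385), and with the Gapdh gap as a covariate, which separates BB from F344 arrays completely, 0 remained. Without F344 replicate 2 there were 17 calls, and Lum, Col16a1, Col7a1, Col9a2 and Col11a2 were among those lost.

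JB against F344 compares islets without the lyp mutation and without DR+/+. Here 8 matrix genes were higher and 7 lower, where 13.0% of all genes were called, 4.79% higher and 8.22% lower, and the median difference was -0.01. The 8 higher genes were Loxl2, Thbs4, Col4a2, Col13a1, Fbn1, Col5a2, Lamb1 and Col4a1. The 7 lower genes were Col6a2, Lamb3, Col7a1, Col16a1, Col14a1, Lamb2 and Col9a2. Col7a1, the collagen of anchoring fibrils that attach epithelia, fell by 0.69 ± 0.16 (adjusted p = 0.0208), and its JB and JBlyp/lyp arrays, between 4.55 and 4.95, lay below all others, between 5.24 and 5.56. Col16a1, a fibril-associated chain, fell by 0.68 ± 0.18 (adjusted p = 0.0418).

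These calls depend on few arrays. Without F344 replicate 1 the total of 15 dropped to 2, without F344 replicate 2 to 4, and without either JB array to 8. Of the 13 named calls those of Thbs4 and Lamb3 held without each array in turn. The other 11 were all lost without F344 replicate 1, and all of these except Fbn1 and Loxl2 also without F344 replicate 2. With the beta-actin gap as a covariate 3 genes were called, of which 1 was among the 15, with the hexokinase gap 6, of which 4 were, and with the Gapdh gap 0.

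JBlyp/lyp against F344lyp compares the 2 backgrounds with lyp, and 3 matrix genes were higher and 9 lower, where 16.0% of all genes were called, 4.7% higher and 11.3% lower. The median difference was -0.15. The higher genes were Loxl2, Thbs4 and Col24a1, a fibrillar chain, at 0.68 ± 0.16 (adjusted p = 0.0206). The lower genes were Lamb3, Col6a1, Col6a2, Col6a3, Fn1, Col14a1, Col18a1, Lamb2 and Col7a1, so that 3 of 5 collagen VI chains were among them. Col18a1 fell by 0.73 ± 0.20 (adjusted p = 0.0366), with 7.57 and 7.05 in JBlyp/lyp and 7.94 and 8.15 in F344lyp.

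The total of 12 was 3 without F344lyp replicate 2, all of them among the 12, and 7 without F344lyp replicate 1 or JBlyp/lyp replicate 2, of which 6 were among the 12 in each case. Thbs4, Lamb3 and Col6a3 were the named calls that held without each array. Loxl2 lost its call without JBlyp/lyp replicate 1 or either F344lyp array, Col24a1 and Col6a2 without JBlyp/lyp replicate 2 or either F344lyp array, Fn1 without JBlyp/lyp replicate 2 or F344lyp replicate 2, Col14a1 without F344lyp replicate 2, and Col18a1 without JBlyp/lyp replicate 2 or any DR+/+, F344 or F344lyp array. Fitted on the 4 arrays alone the count was 4.

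**Figure D3:**
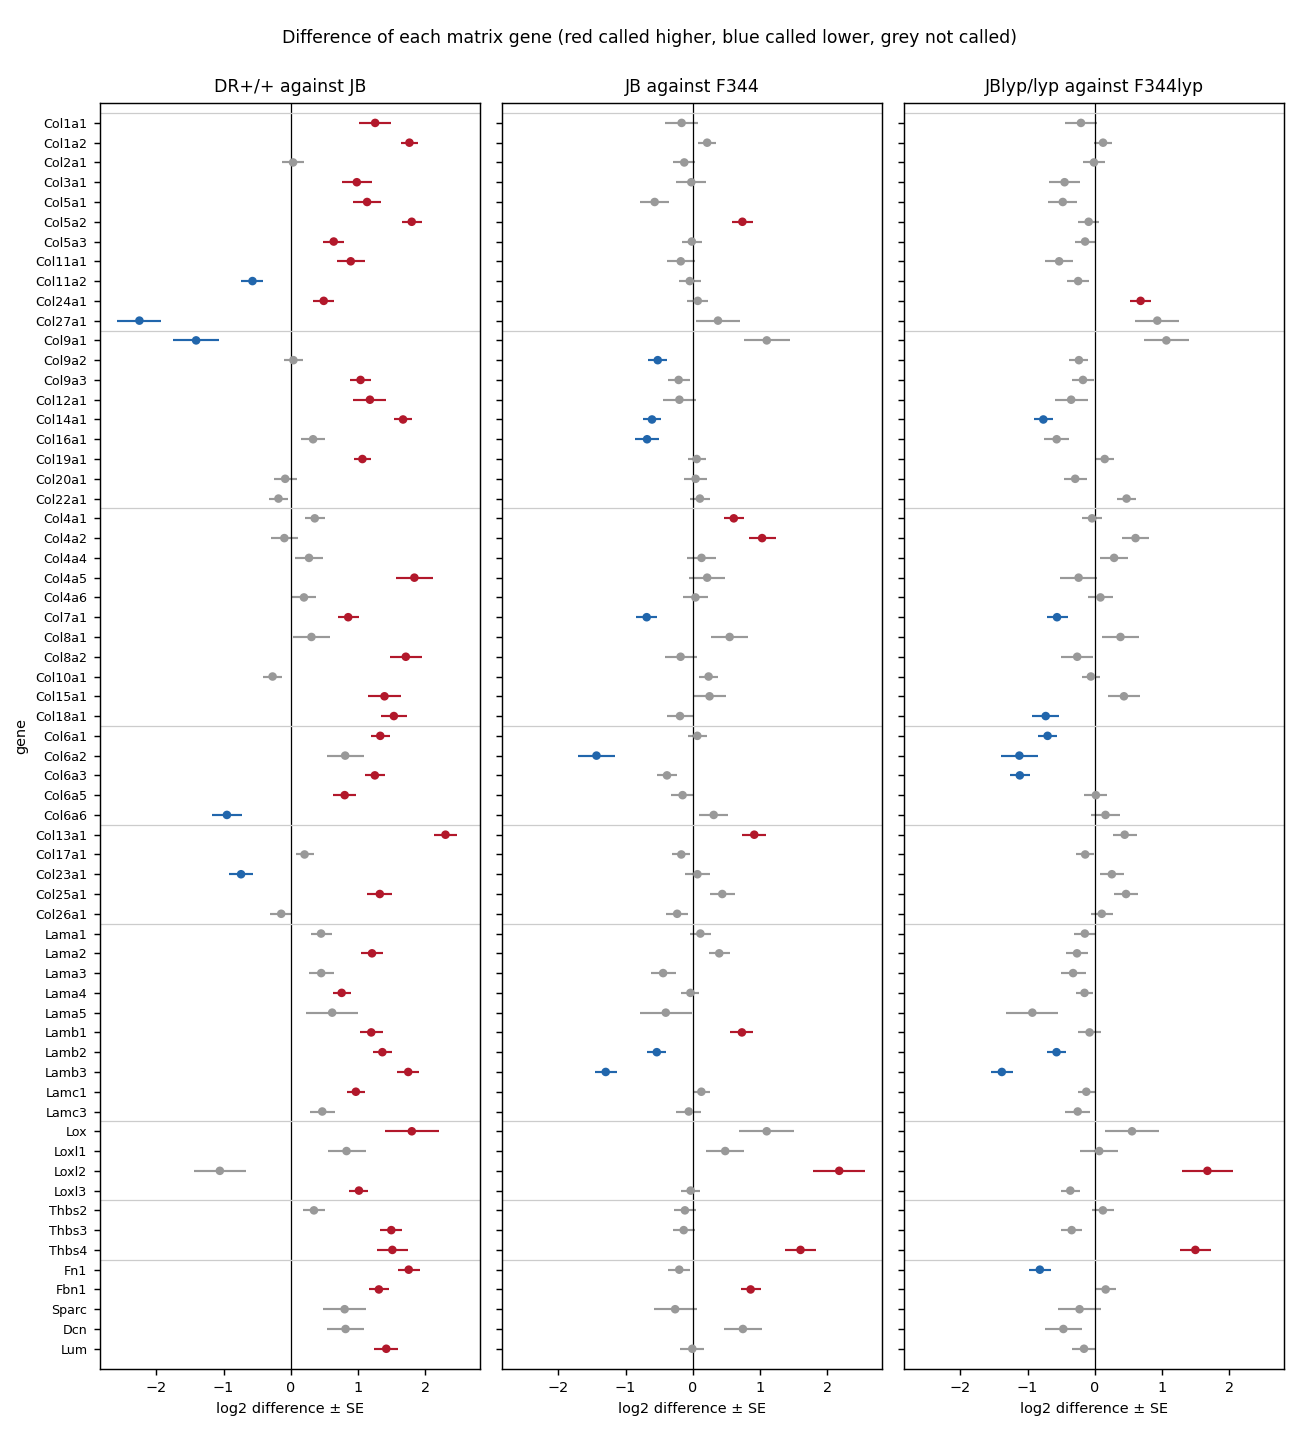
Log2 difference of each of the 63 matrix genes (rows, grouped by role) with its standard error in 3 comparisons (panels), red where called higher, blue where called lower and grey where not called. Most points lie right of 0 for DR+/+ against JB, and points lie on both sides of 0 for JB against F344 and JBlyp/lyp against F344lyp.

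The lyp genotype gave no call among the matrix genes on either background in limma. JBlyp/lyp against JB had 0 of 63 called, where 0.00703% of all genes were called, and 6 at an unadjusted p under 0.05 (9.52%), beside 6.03% of all genes. Deviations of same-numbered JB and JBlyp/lyp arrays correlated at 0.65 over all probe sets. The unpaired test counts such a shared shift as spread, so 0 calls do not show that lyp had no effect there. F344lyp against F344 had 0 called, where 1.9% of all genes were called, and 17 at an unadjusted p under 0.05 (27.0%), beside 17.2% of all genes. Fitted on its 4 arrays alone, the latter comparison called 9 genes, 6 higher and 3 lower, and 2 genes without either JBlyp/lyp array. The difference between the lyp effects also gave 0 calls, where 0.478% of all genes were called, and 10 genes at an unadjusted p under 0.05 (15.9%), beside 8.68% of all genes.

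For Dcn, Fbn1 and Sparc the values under lyp were as follows. Dcn differed by 0.88 ± 0.28 between F344lyp and F344 (adjusted p = 0.168) and by -0.34 ± 0.28 between JBlyp/lyp and JB (adjusted p = 0.905), and the test of the difference between these gave -1.21 ± 0.40 (adjusted p = 0.450). Its 2 F344lyp arrays did not overlap with the 2 F344 arrays. Fbn1 gave 0.37 ± 0.15 and -0.32 ± 0.15 for the same comparisons (adjusted p of 0.267 and 0.810), and Sparc 0.50 ± 0.32 and 0.54 ± 0.32 (adjusted p of 0.493 and 0.862).

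Where a gene had more than 1 probe set, how often the dimmer ones had the sign of the brightest varied between comparisons. For DR+/+ against JB 24 of 25 further probe sets of 21 genes had the same sign, 8 were called higher and none lower, where 13.0% of all probe sets were called higher and 15.4% lower. For DR+/+ against F344 19 of 25 had the same sign, and for JB against F344 14 of 25 did. Col4a6, another basement membrane chain, was not called by its brightest probe set, at 0.20, while its other probe set was higher by 1.40 (adjusted p = 8.82e-05). For Lox the dimmer probe set was called in JB against F344, at 1.62 (adjusted p = 0.00347), where the brightest was not, at 1.10 ± 0.40 (adjusted p = 0.120).

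Genes that act on the same matrix were counted from lists. Of 34 other matrix proteins 20 rose and 1 fell in DR+/+ against JB, with a median difference of 0.88. Efemp1, a fibulin, rose by 3.11, Ecm2 by 2.35, Fmod, the fibril-binding fibromodulin, by 2.07 and Smoc2 by 2.04, and Emilin1, an elastic fibre protein, fell by 1.12. Of 27 integrins and matrix receptors 15 rose and 1 fell, with a median of 0.68. Itgb6 rose by 2.18, Itgb3 by 2.16, the collagen receptor Ddr2 by 2.02 and the syndecan Sdc1 by 1.91. Of 30 genes of matrix degradation and its inhibitors 15 rose and 1 fell, with a median of 0.61, the inhibitor Timp1 by 1.67 and the proteases Adamts9 and Adamts5 by 1.70 and 1.63.

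Genes of collagen processing and secretion went in both directions. Of 19 such genes 5 rose and 3 fell in DR+/+ against JB, and the median difference was 0.04. Their summed intensity was lower in DR+/+, at 8405 and 8744, than on the other arrays, which lay between 10588 and 15947. P4ha3, a prolyl hydroxylase subunit, rose by 2.01, the collagen chaperone Serpinh1 by 1.22 and the lysyl hydroxylase Plod2 by 1.15, while Mia3, which loads collagen for export, fell by 1.06 and P4hb by 0.97. Of 26 genes of the TGF-beta pathway and its matrix targets, a pathway that induces collagen genes, 9 rose and 2 fell, with a median of 0.22. Postn, periostin, rose by 2.02 and Smad3 by 1.31, whereas Bambi, a decoy receptor, fell by 1.30.

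Marker lists of other cells went in different directions in DR+/+ against JB, where 15.5% of all genes were called higher and 18.4% lower. In DR+/+ against JB 14 of 16 endothelial markers rose and none fell (median 1.12), as did 7 of 11 mesothelial markers with 1 fall (median 2.38), 7 of 12 ductal markers with none (median 1.27) and 10 of 20 stellate and fibroblast markers with none (median 0.71). Among 8 beta cell markers 7 fell and none rose (median -1.73), among 8 other endocrine markers 6 fell and 2 rose (median -1.84), and among 19 acinar markers 15 fell and none rose (median -1.38). Of 15 macrophage markers 2 rose and 4 fell (median 0.01), and of 7 Schwann cell markers 1 rose and 1 fell (median 0.23). The mesothelial gene Wt1 rose by 3.58 and Upk1b by 4.21, while Msln fell by 1.99.

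Mean levels of the lists can be set beside these counts. The mean log2 level of the mesothelial list was 8.88 to 8.94 on the DR+/+ arrays and 6.86 to 7.50 on the other 8, that of the endothelial list 9.63 to 9.65 against 8.03 to 8.60, and that of the stellate and fibroblast list 7.68 to 7.76 against 6.61 to 7.35. The summed intensity of the mesothelial list did not set DR+/+ apart from the JB groups. It was 9502 and 9675 in DR+/+, 9482 to 11524 in JB and JBlyp/lyp, and 7008 to 9192 in F344 and F344lyp. For the endothelial list the sums were 20775 and 20792 in DR+/+ and 6360 to 9811 elsewhere. For the stellate and fibroblast list they were 8784 and 9150 against 3298 to 7568. No marker is listed at 0, since these are log2 intensities. The 63 matrix genes themselves had means of 7.62 and 7.65 on the DR+/+ arrays and between 6.76 and 6.95 elsewhere. The part of these cell types in the matrix gene differences was not tested.

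Marker lists also moved between JB and F344. Of 19 acinar markers 17 fell and none rose, of 15 macrophage markers 9 fell and none rose, and of 12 ductal markers 5 fell and none rose. Among endothelial markers 4 rose and 2 fell, and among stellate and fibroblast markers 2 rose and 4 fell. In JBlyp/lyp against F344lyp 18 acinar and 12 macrophage markers fell and none rose, 10 of 34 other matrix proteins fell and 1 rose, and 5 of 11 mesothelial markers fell and 2 rose. The mean log2 level of the acinar list was 10.2 to 10.8 on the JB and JBlyp/lyp arrays and 12.0 to 13.0 on the F344 and F344lyp arrays, and that of the macrophage list 5.59 to 5.91 against 6.36 to 6.73. The part of these lists in the matrix gene differences was not tested either.

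**Figure D4:**
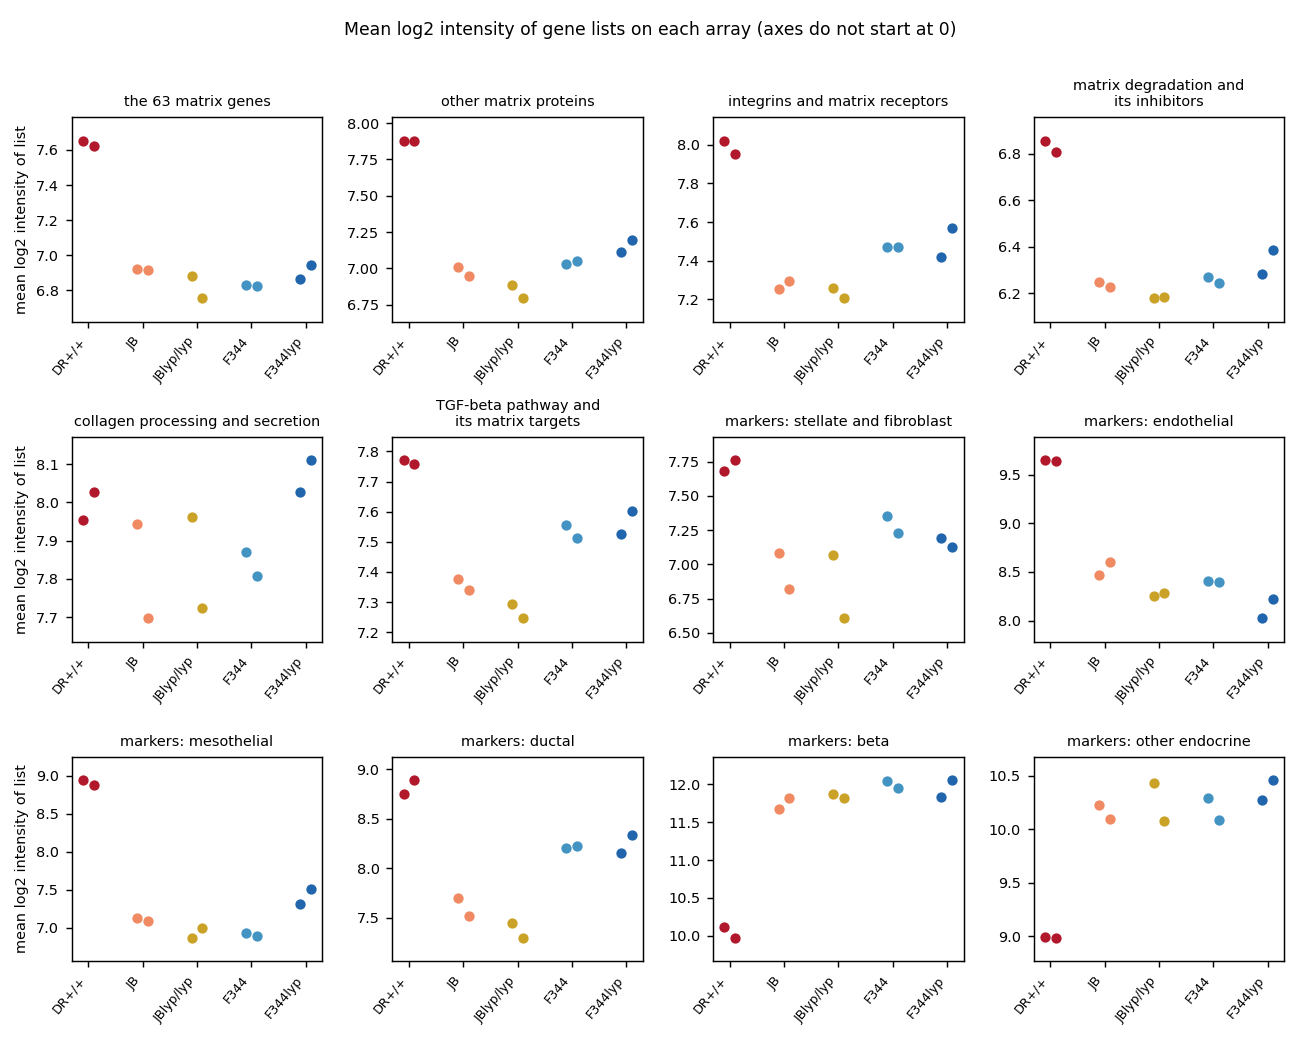
Mean log2 intensity of the 63 matrix genes, of other matrix lists and of cell type marker lists (panels) on each of the 10 arrays (points, coloured by group), on axes that do not start at 0. The DR+/+ points are on top for the matrix genes and the mesothelial and endothelial lists, and lowest for the beta cell list.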

How the data were processed

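The deposited table holds 1 log2 intensity per probe set and array for 31099 probe sets, which the authors made in GCOS by RMA according to the submitters' processing notes, with versions not given in the sources used here. RMA corrects background, equalises the distributions of the arrays and summarises probes, so a shift common to all genes is removed. From these values, 57 control probe sets were set aside and 31042 were fitted with limma 3.58.1 in R 4.3.3: 1 mean per group, contrasts between groups and moderated two-sided tests (eBayes), with 5 residual and 4.72 prior degrees of freedom and no filter on dim probe sets. Benjamini-Hochberg adjustment ran over all 31042 probe sets in each comparison, and a gene was called at an adjusted p under 0.05. The script was checked on simulated data. Figures used matplotlib 3.10.9 in Python 3.11.15.

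Symbols came from the platform annotation, under which 20826 of the probe sets tested name 1 gene, 436 name several and 9780 name none. All 63 symbols matched the RefSeq table of GRCr8 and 48 have a promoter there. The genes, lists and tests were chosen with earlier results of these data known. Differences with their test are given for Col1a1, Col1a2, Col3a1, Col4a1, Col4a2, Fn1, Fbn1, Sparc, Dcn, Lum, Lox, Thbs2 and Thbs4, and for up to 6 called matrix genes with the largest rise and up to 6 with the largest fall in each comparison. Up to 4 called genes of a pathway list are named, with Emilin1 and P4hb given beyond that number. Tests of single further probe sets are outside these rules and were chosen after their values were seen. The number of arrays limits the precision. Alternatives were an intensity trend, only brighter probe sets, centred arrays, fits on the compared groups, a replicate block, the Gapdh gap as a covariate, probe set means, the group as a random block, and leaving out arrays; the beta-actin and hexokinase gaps were added after seeing the data.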

Additional observations from a re-analysis of the deposited data

Results flagged for a closer look

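Lama2, the laminin alpha chain of muscle and nerve basement membranes, was the only matrix gene whose arrays moved in opposite directions on the 2 lyp genotypes. The share of all genes with this pattern was not counted, so it has no background beside it. Both JB arrays (7.87 and 7.64) lay above both F344 arrays (7.22 and 7.50), a difference of 0.39 (adjusted p = 0.157 in limma), and both JBlyp/lyp arrays (7.62 and 7.65) lay below both F344lyp arrays (7.76 and 8.04), a difference of -0.27 (adjusted p = 0.315). The test of the difference between the lyp effects gave -0.66 ± 0.23 (adjusted p = 0.475), which is not past the threshold.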

How the results depend on the processing

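Of 73 named calls, 69 held with an intensity trend, 72 with centred arrays, 71 with the mean of all probe sets of a gene, 51 of 57 in fits on the compared groups alone, 44 with the beta-actin gap as a covariate, 29 with the hexokinase gap and 12 with the Gapdh gap. With the Gapdh gap 0 matrix genes were called in BB against F344, DR+/+ against F344, JB against F344 and JBlyp/lyp against F344lyp, and Col6a2 turned to 0.64 in BB against F344, 0.70 in JB against F344 and 0.16 in JBlyp/lyp against F344lyp, Lamb3 to 0.070 and Col7a1 to 0.19 in BB against F344. With the beta-actin gap the calls were 20 in DR+/+ against JB and 3 in JB against F344, and Lox turned to -0.094. With the hexokinase gap they were 0 in DR+/+ against JB, 9 in DR+/+ against F344 and 6 in JB against F344. Against JB, DR+/+ then differed by -0.55 in Col1a1, -0.044 in Col3a1, -1.62 in Lox, -0.14 in Col4a5, 0.70 in Col27a1, 0.50 in Col6a6 and 0.35 in Col11a2, and against F344 by -0.19 in Col1a1, 0.21 in Col27a1, 0.39 in Col6a6 and 0.037 in Col11a2. With the group as a random block 1 call was left in BB against F344, and without the DR+/+ arrays Fn1 there turned to -0.51 and Lum to -0.085. Fits on the compared groups alone gave 4 calls for JBlyp/lyp against F344lyp and 9 for F344lyp against F344. Leaving out 1 array at a time gave 17 to 30 calls for BB against F344, 34 to 46 for DR+/+ against JB, 31 to 45 for DR+/+ against F344, 2 to 17 for JB against F344, 3 to 18 for JBlyp/lyp against F344lyp and 0 to 2 for F344lyp against F344. The lone array left in a group is then assumed to vary like the other groups. The cause of these changes was not tested. Deviations of same-numbered arrays correlated at 0.65 between JB and JBlyp/lyp, at 0.20 to 0.24 between a JB and an F344 group, and at -0.10 to 0.08 for the other pairs of groups. Not every pair passed 0.1 and the labels name no shared litter or day, so the arrays were not treated as paired. With the replicate block 38 matrix genes were higher and 5 lower in DR+/+ against JB, and JBlyp/lyp against F344lyp had 5 higher and 11 lower, and all 73 named calls held. Of the 63 genes, 19 have a mean below the median probe set, where differences are compressed by background signal.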

Other observations

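Several matrix genes differed more between the replicates of the JB groups than elsewhere. A gap over 0.5 on the log2 scale between the 2 arrays of a group was seen for 15 of the 63 genes in JB and 14 in JBlyp/lyp, but for 1 in DR+/+, 1 in F344 and 4 in F344lyp. In both JB groups 10 genes passed that gap, and in 9 of them the same-numbered array was the higher in both groups, among them Col9a1, Lox, Loxl1, Loxl2 and Dcn. The share of all genes with such gaps was not counted, so these counts have no background beside them. Over all probe sets, replicates also correlated least in these groups, at 0.985 in JB and 0.981 in JBlyp/lyp. The other groups had 0.991 to 0.997. The labels do not say whether same-numbered JB and JBlyp/lyp arrays share a litter, a day or an isolation, and this was not tested.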
